A study of Homo sapiens with 16 samples.

Results

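CXCL14 is a small secreted protein of the CXC class of chemokines, and its messenger RNA is the subject of the measurements given here. It was taken as the row with that symbol in each gene table, which is 1 of 20314 genes in U251 and 1 of 20626 genes in U343. The gene was chosen from its readout: its fall with miR-137 was among the largest, and its starting level differed greatly between the 2 lines. Its fold changes with miR-137 and its baselines are therefore descriptions and carry no test. U251 and U343 are human glioblastoma cell lines. Cells of each line received either a mimic of miR-137 or a control mimic, both at 25 nM, and RNA was taken at 48 hours. RNASeq measured total RNA after removal of ribosomal RNA, and RIPSeq measured RNA pulled down with a mix of antibodies against the poly(A)-binding protein (PABP). Line, assay and transfection make 8 groups of 2 libraries each, 16 in all. The U251 libraries were primed with random hexamers and made with the EpiScript enzyme, while the U343 libraries used the TotalScript kit, so that the line and the library kit cannot be told apart in any comparison of U251 with U343.

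Chemokines are secreted signals that draw cells along a gradient by way of G protein-coupled receptors. CXCL14 is made by epithelia and is known as an attractant of monocytes and dendritic cells, and it lacks the ELR motif of the chemokines that recruit neutrophils. A microRNA guides Argonaute to messenger RNAs that pair with its seed, after which the bound RNA is translated less or degraded. PABP sits on the poly(A) tail, so that pulling it down recovers polyadenylated messenger RNA, and an RNA that loses its tail or is degraded also leaves this fraction. miR-137 is enriched in neurons and is low in glioblastoma.

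The mature strand of miR-137 is shown because its seed is what sets which transcripts the mimic can pair with. RefSeq places it on the minus strand at chr1:98046091-98046113 of GRCh38.p14. The capitals mark bases 2 to 8, the seed. CXCL14 was not searched for matches to this seed.
hsa-miR-137-3p: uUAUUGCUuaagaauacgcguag

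CXCL14 lies at chr5:134934268-134942868 of hg18, on the minus strand as the U343 tables give it, and spans 8.601 kb. No other gene of the tables overlaps it. The annotation of RefSeq genes holds 1 symbol that begins with CXCL14, so no pseudogene carries its name.

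The U251 RNASeq libraries held 10156675 to 18224061 reads on genes, and the U251 RIPSeq libraries 22359794 to 30731476. The U343 libraries of both assays held 37736206 to 45134766. A pair of groups held libraries that stood apart from each other. Set against the other library of its group by a chi-square of counts, the mean per gene was 181 in the U251 RIPSeq controls and 145 in U343 RNASeq after miR-137, and between 2.17 and 18.0 in the other 6 groups. Of the markers that define glial and glioma cells, VIM, CD44, NES and SOX2 were present in both lines, while OLIG2 was at most 0.276 CPM in any library, and in U251 AQP4 was at most 0.737 CPM and S100B at most 1.71 CPM. GFAP, the intermediate filament of astrocytes, ranged from 3254 to 8129 counts per 1000000 reads (CPM) in U343 and from 3.11 to 31.6 CPM in U251. PTPRC, the common antigen of leukocytes, stayed at or under 0.667 CPM in every library.

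Levels of CXCL14 are given as CPM on library totals scaled by TMM, a method that sets libraries to a common level over most genes. The labels do not say that the 2 libraries of a group came from separate cultures, so that errors and p-values measure the spread between these libraries, which may be technical. In U251 RNASeq the controls held 668 and 990 reads on CXCL14, or 40.8 and 58.3 CPM. After miR-137 the libraries held 13 and 18 reads, or 1.08 and 1.51 CPM. These low values had exact (Clopper-Pearson) 95% intervals of 0.675 to 2.17 and 1.05 to 2.80 CPM on unscaled library totals, which cover counting error only. Both miR-137 libraries were far under both controls.

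In U251 RIPSeq, CXCL14 stood at 39.0 and 71.0 CPM in the controls, from 1004 and 1886 reads. After miR-137 it stood at 7.82 and 9.66 CPM, from 198 and 256 reads. The groups did not overlap, but the controls were the pair that stood apart over all genes.

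In U343 the gene was abundant. RNASeq controls held 30774 and 28076 reads, or 659 and 732 CPM, and the miR-137 libraries 3171 and 4128 reads, or 76.9 and 95.1 CPM. RIPSeq controls held 72984 and 89795 reads, or 1781 and 2425 CPM, and the miR-137 libraries 4133 and 6782 reads, or 115 and 188 CPM. In both assays each miR-137 library was lower than each control library.

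**Figure D1:**
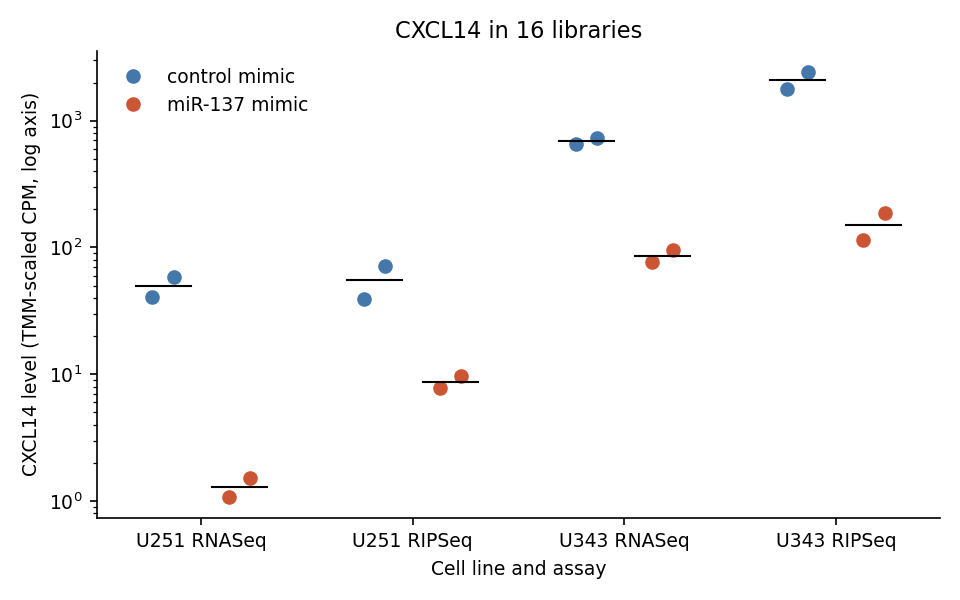
The plot shows the CXCL14 level in TMM-scaled CPM on a log axis for the 16 libraries, by cell line and assay. Points are libraries, short lines are means of 2 libraries, and the miR-137 points (1.08 to 188 CPM) lie under the control points of the same line and assay in each of the 4 experiments.

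Ordered by mean, CXCL14 was highest in U343 RIPSeq controls (2103 ± 455 CPM, SD, n = 2), followed by U343 RNASeq controls (696 ± 51.6 CPM, SD, n = 2). U343 RIPSeq after miR-137 (152 ± 51.3 CPM, SD, n = 2) and U343 RNASeq after miR-137 (86.0 ± 12.9 CPM, SD, n = 2) came next. The U251 controls followed, at 55.0 ± 22.6 CPM in RIPSeq and 49.6 ± 12.4 CPM in RNASeq (SD, n = 2 each), and these neighbours overlapped. The lowest groups were U251 after miR-137, with 8.74 ± 1.31 CPM in RIPSeq and 1.30 ± 0.303 CPM in RNASeq (SD, n = 2 each). The libraries of the other neighbouring groups did not overlap. Each U343 library transfected with miR-137 therefore still held more CXCL14 on the CPM scale than any U251 control library.

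Between the lines, mean CPM in U343 was 14.0 times that of U251 in RNASeq controls and 38.3 times in RIPSeq controls. After miR-137 the ratio was 66.3 in RNASeq and 17.4 in RIPSeq. Of the 6 epithelial markers, KRT5 and CDH1 were higher in U343 RNASeq, KRT8 and KRT18 were higher in U251 RNASeq, and EPCAM and KRT14 were at or near 0 in both lines. KRT5, a keratin of basal epithelium, ranged from 828 to 1436 CPM in U343 RNASeq and was at most 0.168 CPM in U251 RNASeq. CDH1, the adhesion protein E-cadherin, ranged from 62.4 to 119 CPM against at most 0.252 CPM in the same assay. The keratins of simple epithelium, KRT8 and KRT18, averaged 62.9 and 114 CPM in U251 RNASeq controls and 6.47 and 2.47 CPM in U343 RNASeq controls. The summed level of the 6 epithelial markers was 902 to 1397 CPM in U343 RNASeq controls and 171 to 183 CPM in U251 RNASeq controls, and the part of these genes in the CXCL14 baseline was not tested.

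The fall of CXCL14 with miR-137 was 37.0-fold in U251 RNASeq (log2 fold change -5.21, SE 0.26). It was 6.50-fold in U251 RIPSeq (-2.70, SE 0.35), 8.15-fold in U343 RNASeq (-3.03, SE 0.17) and 13.7-fold in U343 RIPSeq (-3.78, SE 0.27), all from edgeR with 2 libraries on each side. Among all genes tested, the fall ranked at place 2 of 13052 in U251 RNASeq, 35 of 14087 in U251 RIPSeq, 5 of 15088 in U343 RNASeq and 2 of 14866 in U343 RIPSeq. The gene ranked above it in U251 RNASeq was CXCR7, with 0 reads in both miR-137 libraries. Taking each control library against each miR-137 library, 4 pairs in all, the odds ratio of control over miR-137 ranged from 22.3 to 42.9 in U251 RNASeq, from 4.68 to 7.84 in U251 RIPSeq, from 7.26 to 9.71 in U343 RNASeq and from 9.03 to 21.6 in U343 RIPSeq. In bulk RNA, fewer cells that make CXCL14 and less CXCL14 RNA per cell cannot be told apart. Glial and glioma markers moved as well. In U251 RNASeq 5 of the 6 tested fell (edgeR, adjusted p under 0.05, where 29% of all genes fell), with log2 fold changes of -3.18 for GFAP, -2.92 for S100B, -1.25 for NES, -1.19 for VIM and -0.79 for CD44. In U343 RIPSeq GFAP (-0.79) and AQP4 (-1.22) fell and NES (1.37) rose among 7 tested, where 27.8% of all genes fell and 28.5% rose. In U343 RNASeq NES (1.58) and CD44 (0.61) rose among 7, where 11.7% of all genes fell and 8.31% rose. Like all edgeR calls of that experiment, these were lost when either control was left out. DESeq2 called 2 of the 7 higher and 1 lower there. In U251 RIPSeq edgeR and DESeq2 each called 0 of 7, where edgeR called 1.21% of all genes. At an unadjusted p under 0.05, 3 and 4 of the 7 were lower, where 2828 and 2633 of 14087 genes passed in either direction. The part of these genes in the CXCL14 fall was not tested.

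**Figure D2:**
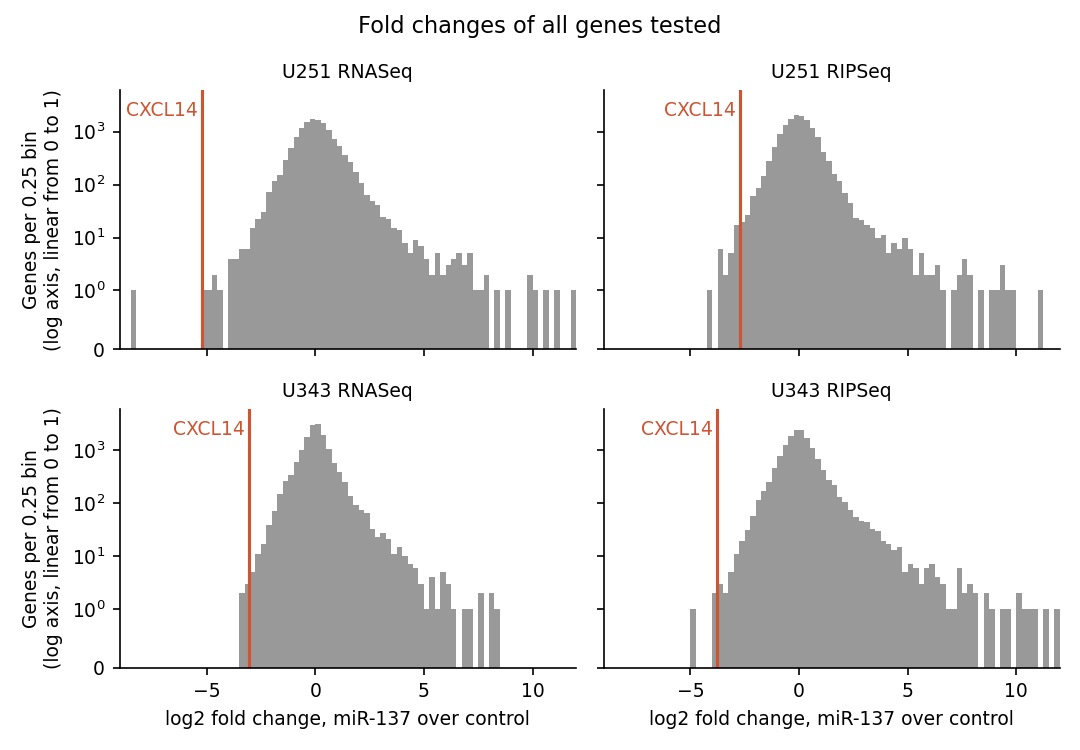
The histograms give the number of genes in bins of 0.25 log2 fold change (miR-137 over control) in the 4 experiments, with the count axis logarithmic above 1, and the line marks CXCL14. CXCL14 lies in the far left tail, at -5.21, -2.70, -3.03 and -3.78 in U251 RNASeq, U251 RIPSeq, U343 RNASeq and U343 RIPSeq.

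The order of the assays was opposite in the 2 lines. In U251 the log2 fold change was higher, that is the fall smaller, by 2.51 (SE 0.44) in RIPSeq than in RNASeq. In U343 the log2 fold change was -0.75 (SE 0.32) in RIPSeq relative to RNASeq, a larger fall. Set side by side across the lines, the U343 value lay 2.18 above the U251 value in RNASeq (SE 0.31), and the difference in RIPSeq was -1.08 (SE 0.44). Of the 26 genes with a log2 fold change of -3 or lower in U251 RNASeq, CXCL14 among them, which are 0.199% of the genes tested, 25 were tested in U251 RIPSeq. Their median there was -1.71 (quartiles -2.70 and -0.81). Genes picked by RIPSeq instead had smaller falls in RNASeq, with medians of -3.50 and -2.34 in U251 and -3.47 and -2.37 in U343. These cover the 10 of 14 picked genes that were tested in both assays in U251 and all 13 in U343. Of the 5 genes picked by U343 RNASeq, 3 were tested in RIPSeq, and their median went from -3.10 to -3.61. Because each set was picked by its value in 1 assay, these medians do not compare the assays.

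Without the U343 RNASeq miR-137 library of replicate 1 the log2 fold change was -2.86, and without replicate 2 it was -3.22. In U251 RIPSeq it was -2.99 without the control of replicate 1 and -2.25 without that of replicate 2. On library totals without TMM, CXCL14 in U251 RNASeq stood at -4.94, and the median over all genes of that experiment moved from 0.015 to 0.28.

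Of 12192 genes tested in all 4 experiments, 10 had a log2 fold change of -2 or lower in each, which is 0.082%, and CXCL14 was among them. The others were CDK6, a kinase that drives entry into S phase, CERK, the ceramide kinase, IMPA2, an inositol monophosphatase, MED11, a Mediator subunit, METTL9, a histidine methyltransferase, SLC43A2, an amino acid transporter, NXT2, a factor of RNA export, and NT5DC2 and C2orf7. No gene reached -3 in all 4, and 128 reached -1. Ordered by the smallest of its 4 falls, CXCL14 (-2.70, in U251 RIPSeq) came at place 2, after CDK6 (-2.78, in U343 RNASeq). CXCL14 varied more between experiments than CDK6 did, whose log2 fold changes ran from -3.53 to -2.78, while those of CXCL14 ran from -5.21 to -2.70.

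By distance over the 4 log2 fold changes among 11977 genes, the genes nearest to CXCL14 were SERPINA3 (1.70), an acute-phase inhibitor of serine proteases, then CDK6 (1.97), IMPA2 (2.56), SLC16A9 (2.77) and CERK (2.95). SERPINA3 shared with CXCL14 both a fall in U251 that was larger in RNASeq (-4.43) than in RIPSeq (-1.78) and a fall in U343 that was larger in RIPSeq (-4.86) than in RNASeq (-2.54). It was, however, a low gene, with a mean of at most 15.6 CPM in any group. Over the levels in all 16 libraries, among 13772 genes, Pearson's r to CXCL14 was highest for MXRA7 (0.980), SEPHS1 (0.971), UQCRC1 (0.970), HADHA (0.970) and FKBP4 (0.969). MXRA7 averaged 81.8 CPM in U251 RNASeq controls and 427 CPM in U343 RNASeq controls, and its log2 fold changes were -2.74 in U251 RNASeq, -1.89 in U251 RIPSeq, -0.97 in U343 RNASeq and -1.54 in U343 RIPSeq. These likenesses are descriptions over libraries that share line, kit and transfection, and they carry no test.

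The level of CXCL14 recovered with PABP was also set against that in total RNA. All these libraries entered the falls and baselines by which the gene was chosen, so the ratios are descriptions with no test. Because TMM sets each library to a common level, the ratio is relative to the other genes of the library and does not measure how much RNA was bound in all. In U251 controls, 39.0 and 71.0 CPM in RIPSeq overlapped with 40.8 and 58.3 CPM in RNASeq. The log2 ratio was 0.25 (SE 0.28, interval -0.30 to 0.79), with 2 of 4 library pairs higher in RIPSeq, and 56.4% of genes had a smaller one.

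In U343 controls, 1781 and 2425 CPM in RIPSeq stood above 659 and 732 CPM in RNASeq. CXCL14 was 2.96-fold higher in the PABP-bound fraction (log2 ratio 1.57, SE 0.26), and it was higher in 4 of 4 library pairs. Of 15413 genes, 192 had a larger ratio than CXCL14. The log2 ratio in controls was 1.25 larger in U343 than in U251 (SE 0.38, interval 0.50 to 2.00).

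After miR-137 the log2 ratio was 2.71 in U251 (SE 0.35, 6.56-fold), where 60 of 14210 genes had a larger one. In U343 it was 0.82 (SE 0.26, 1.76-fold), where 91.9% of genes had a smaller one. The U251 value rests on RNASeq libraries with 13 and 18 reads.

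**Figure D3:**
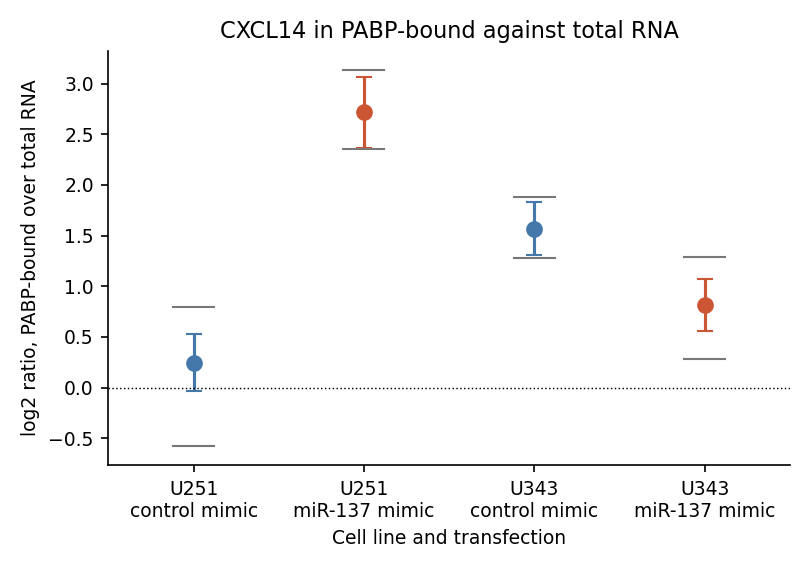
The plot gives the log2 ratio of CXCL14 in PABP-bound over total RNA by cell line and transfection, with points for the edgeR estimate, bars for its SE, and grey ticks for the lowest and highest of the 4 library pairs. In controls the ratio is 0.25 in U251 and 1.57 in U343, and after miR-137 it is 2.71 in U251 and 0.82 in U343.

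Other chemokines and their receptors were then set beside CXCL14. The list holds 62 genes besides CXCL14, of which 15 were tested in U251 RNASeq, 20 in U251 RIPSeq, 21 in U343 RNASeq and 24 in U343 RIPSeq. In U251 RNASeq 3 fell and 8 rose (edgeR, adjusted p under 0.05), where 29% of all genes fell and 28.7% rose. In U251 RIPSeq 0 fell and 3 rose, against 0.263% and 0.944% of all genes. In U343 RNASeq 0 fell and 3 rose, against 11.7% and 8.31%, and in U343 RIPSeq 0 fell and 15 rose, against 27.8% and 28.5%. In either direction, 57.7%, 1.21%, 20% and 56.3% of all genes were called in the same order. At an unadjusted p under 0.05 the falls were 3 in U251 RIPSeq, 0 in U343 RNASeq and 1 in U343 RIPSeq (edgeR). Over all genes 2828 of 14087, 5551 of 15088 and 9021 of 14866 passed that cut in either direction. DESeq2 called 2, 0 and 0 list genes lower, against 534, 2357 and 3790 of all genes. The median log2 fold change of the tested list genes was 1.18, 0.42, 0.39 and 1.32 in the same order, and that of all genes was 0.015, -0.019, 0.023 and 0.0049. List genes near 0 reads in controls were tested only where they were high after miR-137, as CXCL10, CXCL11 and CCL5 were in U251 RNASeq. The rises and medians of the list are therefore partly set by the filter of low counts and do not compare the list with all genes. The split of all genes in U251 RNASeq moves with the scaling: 50.2% of the calls were falls with TMM, 39.5% with upper-quartile factors and 31.2% on library totals.

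The counts of both experiments with unlike libraries depended on single libraries. In U251 RIPSeq the number of list genes called and its split into falls and rises changed when either control was left out. In U343 RNASeq the number changed when either miR-137 library was left out. The edgeR calls of the list and of all genes were lost there when either control was left out. In both experiments the number of all genes called moved with single libraries too, and such a fit leaves a lone library in a group. The leave-out calls are therefore not a result about the list. No leave-out was run with DESeq2.

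Among the CXC ligands, CXCL10 and CXCL11 signal through CXCR3 and attract T cells. Both rose in U251 RNASeq, U251 RIPSeq and U343 RIPSeq. In U251 RNASeq CXCL10 had 0 and 0 reads in controls and 94 and 144 after miR-137, at least 111-fold higher against a floor of 3 reads over the group (edgeR, adjusted p = 9.34e-08). In U251 RIPSeq it went from 4 and 0 reads to 1567 and 1659 (adjusted p = 0.0321, edgeR), a call lost with no filter beyond 1 read (adjusted p = 0.0611, edgeR). In U343 RIPSeq it went from 25 and 14 reads to 5211 and 7930 (log2 fold change 8.52, adjusted p = 1.19e-06, edgeR). CXCL11 rose in the same 3 experiments, with log2 fold changes of 6.01 in U251 RNASeq (from 1 and 0 to 25 and 33 reads), 5.60 in U251 RIPSeq and 5.24 in U343 RIPSeq. CXCL9, the other ligand of CXCR3, rose in U343 RIPSeq, from 3 and 2 to 25 and 41 reads. It was not called in U251 RIPSeq (9 and 1 to 14 and 9 reads, adjusted p = 0.614, edgeR) and had too few reads to be tested in RNASeq. CCL5, a CC ligand that attracts T cells and monocytes, rose there by 5.73, 7.66 and 8.74 on the log2 scale. No change of CXCL10, CXCL11 or CCL5 was called in U343 RNASeq.

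In U343 RNASeq the miR-137 libraries differed from each other in these genes, while CXCL14 was low in both. CXCL10 held 12 reads in replicate 1 and 6203 in replicate 2, CXCL11 held 11 and 2108, and CCL5 held 54 and 3033. The controls held 53 and 28 reads on CXCL10, 208 and 62 on CXCL11, and 77 and 70 on CCL5, so that replicate 1 was at or under the controls. CXCL14 was at 76.9 CPM in that library and at 95.1 CPM in replicate 2, both far under the controls.

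**Figure D4:**
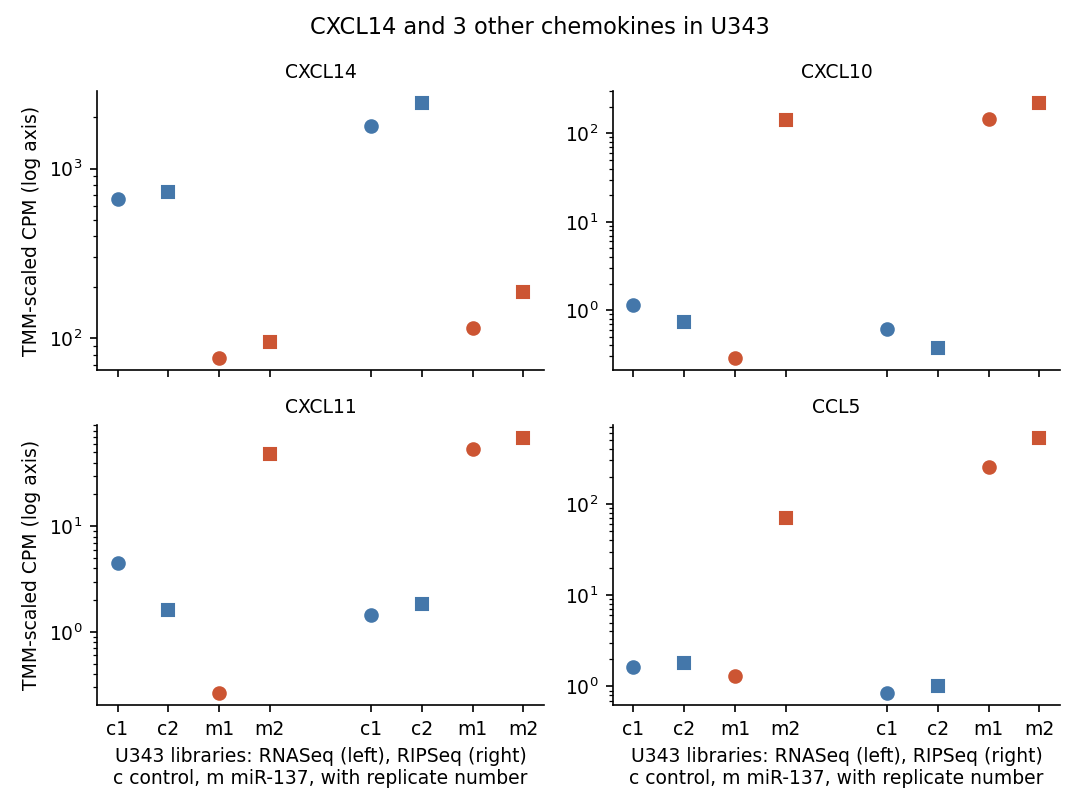
Each panel gives 1 gene in the 8 U343 libraries in TMM-scaled CPM on a log axis, with circles for replicate 1 and squares for replicate 2, blue for control and red for miR-137. In RNASeq, miR-137 replicate 1 holds 12 reads on CXCL10 against 6203 in replicate 2, while CXCL14 is low in both, at 76.9 and 95.1 CPM.

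CXCL12, the ligand that retains stem cells in their niche, was the other CXC ligand that fell in U251 RNASeq. It held 18 and 33 reads in controls and 5 and 3 after miR-137 (log2 fold change -2.12, adjusted p = 0.00312, edgeR). That call was lost without the control of replicate 2 (adjusted p = 0.0798, edgeR) and with all 8 libraries of the line (adjusted p = 0.0602, edgeR). In U251 RIPSeq it went from 98 and 51 to 25 and 26 reads (-1.64, adjusted p = 0.189, edgeR), and in U343 no group held more than 6 reads in all.

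Of the ELR-type ligands that attract neutrophils, IL8, CXCL2 and CXCL3 rose in U251 RNASeq. IL8 held 3742 and 4382 reads in U251 RNASeq controls and 10495 and 12570 after miR-137 (log2 fold change 2.02, adjusted p = 1.84e-07, edgeR). In U343 RIPSeq it went from 11 and 7 to 105 and 200 reads (4.20, adjusted p = 0.000133, edgeR). In U251 RIPSeq its controls, 35767 and 128896 reads, enclosed the miR-137 libraries. CXCL6 went from 81 and 152 to 34 and 34 reads there (-1.80, adjusted p = 0.0992, edgeR). The log2 fold changes of CXCL3 and IL8 in U251 RIPSeq were -0.89 and -0.26 (adjusted p = 0.258 and 0.820, edgeR), and neither was called. CXCL2 and CXCL3 also rose in U251 RNASeq, to 2.21 and 3.12 times the control level by summed reads, and CXCL3 rose in U343 RIPSeq, although that call was lost with DESeq2 (adjusted p = 0.105). CXCL16, a membrane-bound ligand, rose in U251 RNASeq by 2.41 and in U343 RIPSeq by 2.05 on the log2 scale.

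Of the CC and CX3C ligands, CCL2, which attracts monocytes, was the 1 that fell. In U251 RNASeq it went from 1593 and 1799 reads to 562 and 655 (log2 fold change -0.96, adjusted p = 3.91e-05, edgeR). In U251 RIPSeq it went from 20398 and 21140 reads to 7222 and 8102 (-1.51, adjusted p = 0.0562, edgeR), and in U343 its log2 fold change was 0.19 in RNASeq and -0.09 in RIPSeq, neither called. CX3CL1, the membrane-bound fractalkine, rose in U251 RNASeq (2.53), U343 RNASeq (1.26) and U343 RIPSeq (1.81). CCL26, an eotaxin, rose in U343 RNASeq (1.39) and U343 RIPSeq (1.24). The U343 RNASeq calls of CX3CL1, CCL26 and CXCR7 were lost without either control library, with adjusted p between 0.151 and 0.256 (edgeR).

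**Figure D5:**
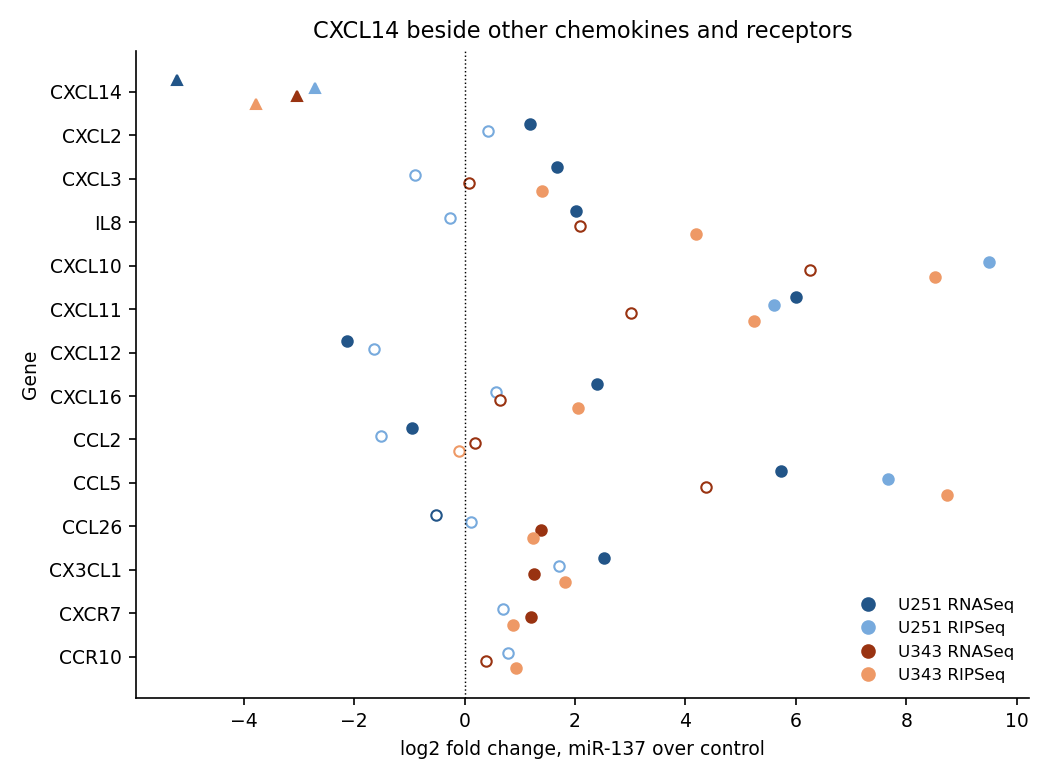
The plot gives log2 fold changes (miR-137 over control) of CXCL14 and 13 other chemokine and receptor genes, colored by experiment, with filled circles for adjusted p under 0.05, open circles for other tested values and triangles for CXCL14, which carries no test. CXCL14 lies between -5.21 and -2.70, and CXCL10 in U251 RNASeq and CXCR7 in U251 RNASeq, which have a group at 0 reads, are not drawn.

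CXCR4, the receptor of CXCL12, which CXCL14 has been reported to bind, was at the limit of detection. It held 12 and 10 reads in U251 RNASeq controls and 3 and 1 after miR-137. In U251 RIPSeq it held 26 and 9 reads in controls and 6 and 7 after miR-137. No U343 library held more than 9, and the gene had too few reads to be tested in any experiment. CXCR7, the scavenging receptor of CXCL12, differed between the lines. In U251 RNASeq it went from 45 and 47 reads to 0 and 0, at least 22.0-fold lower against a floor of 3 reads over the group (edgeR, adjusted p = 5.38e-06). In U251 RIPSeq the same line held 25 and 24 reads in controls and 35 and 49 after miR-137 (adjusted p = 0.388, edgeR). In U343 RNASeq it rose from 13784 and 11798 to 29775 and 29370 reads (log2 fold change 1.20, adjusted p = 0.00667, edgeR), and in U343 RIPSeq by 0.88 on the same scale. CXCR5, CCR1, CCR7, CCR10 and CCRL1 rose in U343 RIPSeq too, CCR10 from 115 to 201 reads in sum.

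Leukocyte markers bear on whether other cells could add chemokine RNA. PTPRC and CD3E were at or near 0 in all groups. The summed level of the 6 leukocyte markers in the tables was nevertheless 8.49 to 10.4 CPM in U251 RNASeq controls and stood at 76.4 to 82.6 CPM after miR-137, and 4.62 to 4.98 CPM in U343 RIPSeq controls and 99.9 to 121 CPM there after miR-137. CD68, a lysosomal protein, made up most of it, with a log2 fold change of 4.95 in U343 RIPSeq. ITGAM fell in U343 RIPSeq, from 13 and 23 to 7 and 3 reads (log2 fold change -1.70, edgeR, adjusted p under 0.05). CD14 rose in U251 RNASeq, from 10 and 1 to 15 and 13 reads (log2 fold change 1.84, edgeR, adjusted p under 0.05). The summed level in U343 RNASeq after miR-137 was 5.72 CPM in replicate 1 and 33.8 CPM in replicate 2. The part of these genes in the chemokine rises was not tested.

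Within 500 kb of CXCL14 on the chromosome the tables hold 10 other genes, and few were expressed. Of all genes tested, 29% fell in U251 RNASeq, 0.263% in U251 RIPSeq, 11.7% in U343 RNASeq and 27.8% in U343 RIPSeq. The tested neighbours were too few for their counts to be told apart from these shares. In U251 RNASeq 1 of 2 tested neighbours fell, TGFBI, a secreted matrix protein 449.6 kb away, with 27699 and 24495 reads in controls and 12126 and 9107 after miR-137 (log2 fold change -0.78, adjusted p = 0.00181, edgeR). In U251 RIPSeq 0 of 2 were called by edgeR and 0 by DESeq2, and TGFBI was the 1 under an unadjusted p of 0.05 (-1.04, adjusted p = 0.112, edgeR). In U343 TGFBI was low, with 37 to 97 reads per library, and its log2 fold change was 0.65 in RNASeq and 0.70 in RIPSeq, neither called. H2AFY, which encodes the histone variant macroH2A and lies 170.8 kb away, fell in U343 RIPSeq (-0.51, adjusted p = 0.00255, edgeR), as 1 of 3 tested. In U343 RNASeq 1 of 5 fell, LOC340074, an uncharacterized transcript 69.4 kb away, with 26 and 33 reads in controls and 10 and 7 after miR-137 (-1.81, adjusted p = 0.0471, edgeR), and most other settings lost that call. C5orf20, TIFAB, NEUROG1, IL9 and FBXL21 had too few reads to be tested in any experiment.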

How the data were processed

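RNASeq and RIPSeq libraries of both lines were grouped as their labels give the line, assay and transfection. The authors used RMAP to align reads to hg18, counts were taken on 1 merged transcript per RefSeq gene, and the deposited values are raw read counts. How reads with several positions were counted is not given in the sources used here. An additional U251 replicate named in the methods was not analysed here. The U251 tables give 1 strand for every gene, which was not used, and 1 duplicated symbol was dropped. The counts were fitted with edgeR 4.0.16 in R 4.3.3 (TMM factors, filterByExpr, quasi-likelihood F test, Benjamini-Hochberg adjustment over all genes tested, threshold 0.05), with the 4 libraries of an experiment for miR-137 against control and the 8 libraries of a line for PABP-bound against total RNA. The PABP comparisons of CXCL14 were planned as tests and are given with no p, because the choice of the gene used those libraries. Intervals of ratios are 1.96 SE on either side, where the SE is the absolute log2 value over the square root of its F statistic. They make no allowance for the few libraries, so they are too narrow and are not tests. The procedure was tested on simulated data in which all libraries varied alike and the changed genes had at least 50 reads on average. That test does not cover groups with unlike libraries or genes with few reads.

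CXCL14 and the gene lists were chosen with earlier results of these data known. Genes given by name were CXCL12, CXCR4, CXCR7, list genes past the threshold that moved the same way in all 4 library pairs with a mean of 50 reads or more in the higher group, genes within 500 kb, and the 5 genes most like CXCL14 by each measure, taken among genes with at least 50 reads on average in their highest group. Other called list genes are named in counts. Alternatives were DESeq2 1.42.0, upper-quartile factors, library totals, other filters of low counts, other sets of libraries in the fit, a replicate block and leaving out each library. Replicate numbers are shared between groups, but the labels do not say that they mark a common culture, so they were not used as pairs.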

Additional observations from a re-analysis of the deposited data

Results flagged for a closer look

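The changes of 3 chemokine or receptor genes with miR-137 ran in opposite directions in U251 and U343, with every library pair of one line going one way and every pair of the other line the opposite way. None of these differences between lines was tested, and the lines also differ in library kit.

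CXCR7 in RNASeq went from 45 and 47 reads to 0 and 0 in U251 and from 13784 and 11798 to 29775 and 29370 reads in U343. With the floor of 3 reads over the group for U251, the log2 ratio was at least 5.67 higher in U343. CXCL3 in RIPSeq was lower in U251 (767 to 441 reads in sum, adjusted p = 0.258, edgeR) and higher in U343 (18 to 44 reads in sum), a log2 difference of 2.30. In U251 RNASeq CXCL3 rose instead (log2 fold change 1.67), so its direction also differed between the assays of U251. CCL26 in RNASeq was lower in U251 (75 and 93 to 38 and 44 reads, adjusted p = 0.0715, edgeR) and higher in U343 (143 and 93 to 357 and 259 reads), a log2 difference of 1.90.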

How the results depend on the processing

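The log2 fold change of CXCL14 with miR-137 kept its direction under every alternative. Under alternatives that kept all libraries it moved by less than the spread between replicates. Leaving out 1 of the 2 libraries of a group moves its mean by less than their SD in any case, so the leave-outs do not test this. Leaving out 1 library gave -5.45 to -4.94 in U251 RNASeq, -2.99 to -2.25 in U251 RIPSeq, -3.22 to -2.86 in U343 RNASeq and -4.18 to -3.47 in U343 RIPSeq. With 2 libraries per group, a leave-out fit leaves a lone library that is assumed to vary like the others. The log2 ratio of PABP-bound to total CXCL14 ranged over such fits from 1.33 to 1.77 in U343 controls, from -0.20 to 0.49 in U251 controls, from 2.51 to 2.99 in U251 after miR-137, from 0.43 to 1.08 in U343 after miR-137, and the difference between lines from 1.04 to 1.79. In U251 controls the direction turned without the RNASeq control of replicate 1 (-0.066) and without the RIPSeq control of replicate 2 (-0.20). In U343 after miR-137 the ratio was 0.77 with upper-quartile factors, 0.73 on library totals, 0.77 with no filter beyond 1 read, 0.78 with at least 50 reads on average and 0.81 with only the 4 libraries of that transfection. The difference between lines was 1.32 with DESeq2. The number of chemokine and receptor genes called fell from 11 to 5 with at least 50 reads on average in U251 RNASeq and from 15 to 9 in U343 RIPSeq, and in U251 RIPSeq it went from 3 to 7 with DESeq2, 8 with all 8 libraries of the line and 7 with the replicate block. Leaving out 1 library gave 10 to 13, 3 to 16, 0 to 12 and 13 to 17 in U251 RNASeq, U251 RIPSeq, U343 RNASeq and U343 RIPSeq, and for the neighbours 1 to 1, 0 to 4, 0 to 2 and 1 to 2. Neighbours called were 0 in U251 RNASeq with all 8 libraries, 1 in U251 RIPSeq with all 8 libraries and 1 with the replicate block, 2 in U343 RIPSeq with the replicate block, and 0 in U343 RNASeq with DESeq2, upper-quartile factors, no filter beyond 1 read, at least 50 reads on average, all 8 libraries or the replicate block. Over all genes, the number called in U251 RNASeq went from 7529 to 2951 with all 8 libraries. In U251 RIPSeq it went from 170 to 1123 with DESeq2, 59 with no filter beyond 1 read, 2355 with all 8 libraries and 802 with the replicate block, and in U343 RNASeq from 3018 to 5033 with all 8 libraries. Over leave-outs it ran from 141 to 11670 in U251 RIPSeq and from 0 to 6146 in U343 RNASeq. The cause was not tested. The correlation of same-numbered libraries ranged from -0.088 to 0.396 over the miR-137 comparisons and from -0.255 to 0.200 over the PABP comparisons, and crossing the numbers in U343 controls, an alternative added after seeing the data, gave a ratio of 1.55. In U251 RNASeq after miR-137, 13 and 18 reads limit the precision of the CXCL14 level.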
